A study of Oryza sativa with 8 samples.

Results

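ZS97-A/MB is a rice line with cytoplasmic male sterility (CMS) that carries the cytoplasm of ZhenShan97A, of the wild abortive (WA) type, in the nuclear background of the fertile maintainer line Meixiang B (MB). The comparison takes the 2 arrays labelled ZhenShan97A and the 2 arrays labelled Meixiang B, 4 of the 8 arrays of the series, and describes all 40832 probes. The other 4 arrays, of D62-A/MB (D type cytoplasm) and XQZ-A/MB (DA type cytoplasm), entered the fit to share its estimate of the spread. They are named as the labels name them, while a table of the study gives both names the other way round, which touches no value of ZS97-A/MB or MB. Each line has 2 biological replicates, so the p-values measure the spread between very few arrays. All lines are indica rice with nuclei backcrossed to MB. The study's methods report that the nuclear genome was replaced only in part in ZS97-A/MB, so effects of the cytoplasm and of donor nuclear segments that remain cannot be told apart. By the labels the tissue was young panicle, but the methods describe anthers sampled when microspores had a single nucleus, and the sources used here leave the hybridized tissue unsettled.

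Pollen grows inside the anther, surrounded by the tapetum, a cell layer that feeds the microspores and supplies lipids and proteins for the outer pollen wall. In CMS plants a mitochondrial gene blocks pollen formation, while nuclear restorer genes can undo the block. In the WA type the mitochondrial gene is known to act in the tapetum, whose cells die early. Plant mitochondria can also pass electrons to oxygen through alternative oxidase, a nuclear-encoded enzyme whose gene is known to respond when the main respiratory chain is disturbed.

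The deposited values are linear intensities. Their median over probes was 7.65 to 8.15 on the arrays of replicate 1 and 19.2 to 20.6 on those of replicate 2, over all lines. Between 64.7% and 65.2% of the probes lay at or below 16 in replicate 1, and between 42.5% and 44.7% in replicate 2. Values under 16 were therefore set to 16 (the floor) before log2, and differences were taken within a replicate number. A probe was called when limma, fitted with a term for the replicate number, gave it an adjusted p under 0.01 together with 2-fold or more between the lines. The fit held the 20416 probes whose mean intensity over all 8 arrays was at or above that of the median probe. A probe that was high in a single line could therefore enter the fit. A fold change is ZS97-A/MB over MB on the log2 scale, so that a negative value means lower in ZS97-A/MB, and it understates the change where an array lies at the floor. In whole tissue, fewer cells of a type and less RNA per cell cannot be told apart.

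Genes that fell in ZS97-A/MB included the tapetum gene OsC6, 5 expansin genes of wall loosening and the sterol gene Smt1-1, and genes that rose included the iron regulator bHLH063, the metal transporter NRAMP1, the potassium transporter HAK5 and alternative oxidase AOX1a. In all, 159 probes were called lower (0.779% of those tested) and 174 higher (0.852%). The median change of the lower probes was -1.56, with -4.53 for the most extreme, and that of the higher probes was 1.46, with 4.15 for the most extreme. By at least 4-fold, 33 probes were lower and 27 higher. All 333 called probes had the same sign in both replicate numbers. A call nearly requires this and favours probes alike in both, since disagreement between the replicate numbers widens the spread in the fit. Of the lower probes 149 were at least 2-fold lower in each replicate number, and of the higher probes 148 were at least 2-fold higher in each. The lower probes had a median difference of -1.53 in replicate number 1 and -1.56 in replicate number 2, and the higher probes 1.29 and 1.59. Both ZS97-A/MB arrays lay at or under the floor for 11 of the lower probes, and both MB arrays for 11 of the higher probes.

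**Figure D1:**
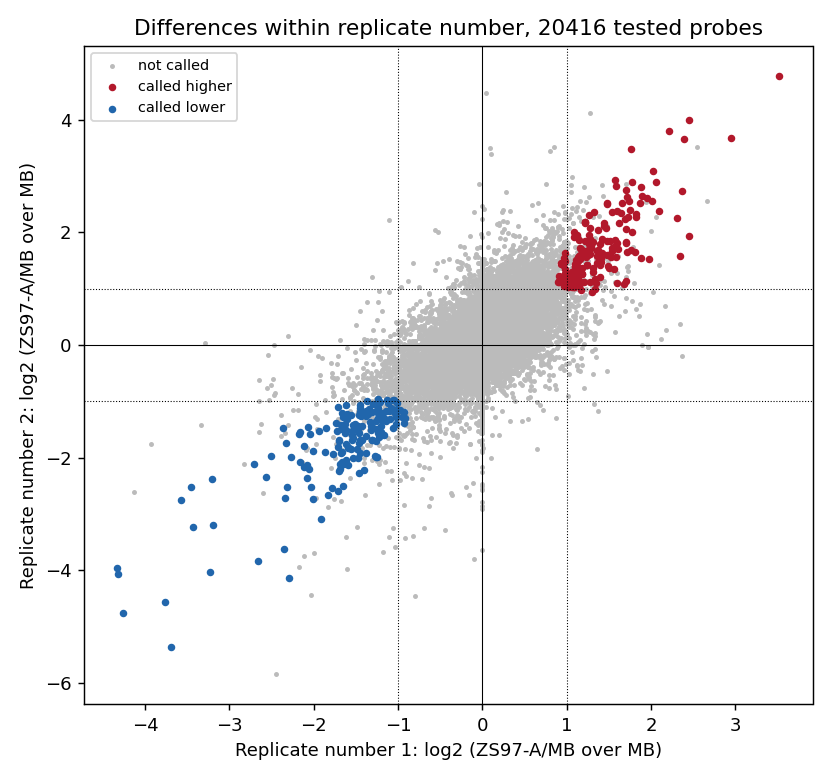
Difference between ZS97-A/MB and MB (log2) in replicate number 1 (horizontal) and replicate number 2 (vertical) for the 20416 tested probes. Red points are the 174 probes called higher, blue points the 159 called lower, grey points the rest, and dotted lines mark 2-fold. All called probes lie at the lower left or the upper right of the origin, which a call nearly requires.

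The balance of the directions depended on the scaling. After quantile normalization, 51 probes were called lower and 20 higher, so that the lower share of the calls was 71.8%, against 47.7% without it, and 69 of these 71 calls were shared with the fit described here. The calls also rest on few arrays. Without ZS97-A/MB replicate 1, ZS97-A/MB replicate 2, XQZ-A/MB replicate 1 or XQZ-A/MB replicate 2, the same fit called 0 probes in either direction (1316 to 2163 lower and 2143 to 3490 higher at an unadjusted p under 0.05), and without MB replicate 2 it called 1 lower and 1 higher. No named gene that was called changed its sign in any of the alternatives, which their like sign in both replicate numbers largely fixed. A floor of 32, however, took 8 of the 41 under 2-fold, among them APX6 (-0.19), HOX14 (-0.40), DCD1 (0.38) and HAK5 (0.45). It also reduced Smt1-1 to -1.16. Over all probes, including those not tested, 272 were at least 2-fold lower in both replicate numbers (0.666%) and 244 at least 2-fold higher (0.598%), a count without a test.

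Counted by gene, with the brightest probe standing for each, 104 of 9960 genes were called lower (1.04%) and 91 higher (0.914%). A symbol was known for 1472 of these genes, and a symbol belonged to 24 genes called lower and to 10 called higher. Just inside the threshold, the largest adjusted p among the called probes was 0.00998 in both directions, and just outside it the smallest among the remaining 2-fold probes was 0.010007. At an adjusted p under 0.05 and 2-fold, 382 probes were lower and 487 higher.

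Among tapetum genes, OsC6 (LOC4350790, chromosome 11) showed the largest fall of the genes with a symbol. It encodes a lipid transfer protein that carries lipids from the tapetum to the pollen wall and the anther cuticle. Its intensity was 20.8 and 123 on the ZS97-A/MB arrays, against 415 and 2063 on the MB arrays. In each line the lower value was that of replicate 1, and the higher ZS97-A/MB array lay below the lower MB array. The log2 fold change was -4.20 ± 0.35 (SE, adjusted p = 0.00454), or 18.3-fold lower, with -4.32 and -4.07 in the replicate numbers. OsC4 (LOC9270168), a gene first described from anther cDNA, measured 71.5 and 243 in ZS97-A/MB, against 661 and 1263 in MB. Here too the lines did not overlap, and the change was -2.79 ± 0.22 (SE, adjusted p = 0.00453).

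Of the 30 genes listed for the tapetum and the pollen wall, 11 could be tied to a probe and 9 were tested, of which 2 fell and 0 rose. The median change of the list was -0.73, against 0.06 over all genes tested, and 8 of its 9 members were negative. Over all genes tested, 44.2% were negative, 1.04% were called lower and 0.914% higher. AP25, an aspartic protease gene that promotes the death of tapetal cells, missed the threshold. It gave 14.1 and 21.0 in ZS97-A/MB, against 30.2 and 224 in MB, so that most of its difference of -2.17 ± 0.55 (SE, adjusted p = 0.0462) came from replicate number 2. The tapetum regulators were not called. TDR, a basic helix-loop-helix factor needed for tapetal death, had a change of -0.73 (adjusted p = 0.287), with both replicate 1 arrays at or under the floor. GAMYB, the gibberellin-induced MYB factor of the anther, measured 188 and 276 in ZS97-A/MB, against 168 and 188 in MB (0.36, adjusted p = 0.186).

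Several of the lower named genes act in the cell wall. Expansins loosen the wall so that cells can extend, and 5 of the 21 tested fell while 0 rose, with a family median of -0.35 and 18 negative members. Beside this, 1.04% of all genes tested were called lower, 0.914% were called higher and 44.2% were negative. EXPB4, a beta-expansin gene, measured 117 and 217 in ZS97-A/MB, against 371 and 808 in MB (-1.78 ± 0.17, SE, adjusted p = 0.00502). The alpha-expansin genes that fell were EXPA5 (-1.76), EXPA4 (-1.67), EXPA7 (-1.51) and EXPA2 (-1.12), with adjusted p between 0.00553 and 0.00872. EXPA4 was steady over the replicates, at 99.9 and 87.3 in ZS97-A/MB and 279 and 315 in MB. In the opposite direction, EXPA18 measured 28.1 and 52.0 in ZS97-A/MB, against 7.50 and 12.9 in MB, where both arrays lay under the floor, and was not called (1.26, adjusted p = 0.0237).

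Of 23 tested genes for cellulose and other wall polymers 2 fell, and of 11 tested beta-glucosidases, which release glucose from glycosides, 2 fell, with 0 higher in either list. The shares over all genes tested were 1.04% lower and 0.914% higher. GLU15, which encodes an endo-beta-1,4-glucanase, gave 12.7 and 34.5 in ZS97-A/MB, against 81.2 and 226 in MB (-2.53 ± 0.31, SE, adjusted p = 0.00786). BC1L9, a COBRA-like gene of the family that orders cellulose in the wall, gave 37.7 and 35.7 in ZS97-A/MB, against 163 and 124 in MB (-1.95 ± 0.16, SE, adjusted p = 0.00454). The median of the wall polymer list was -0.09, with 8 positive members. The cellulose synthase gene CESA6 was at 123 and 279 in ZS97-A/MB and at 209 and 499.6 in MB (-0.80, adjusted p = 0.0193). Among the beta-glucosidases, with a median of -0.20, Os3bglu8 measured 17.1 and 23.01 in ZS97-A/MB, against 85.4 and 132 in MB (-2.42 ± 0.15, SE, adjusted p = 0.00453). Os1bglu4 lay under the floor on both ZS97-A/MB arrays, at 13.2 and 12.4, and at 51.8 and 75.5 in MB, so its change of -1.97 (adjusted p = 0.00464) is counted down to the floor. It entered the fit through its MB values alone. FOR1, which encodes a leucine-rich repeat protein that inhibits pectin-cutting polygalacturonases and controls floral organ number, gave 114 and 235 in ZS97-A/MB, against 329.6 and 946 in MB (-1.77, adjusted p = 0.00696).

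**Figure D2:**
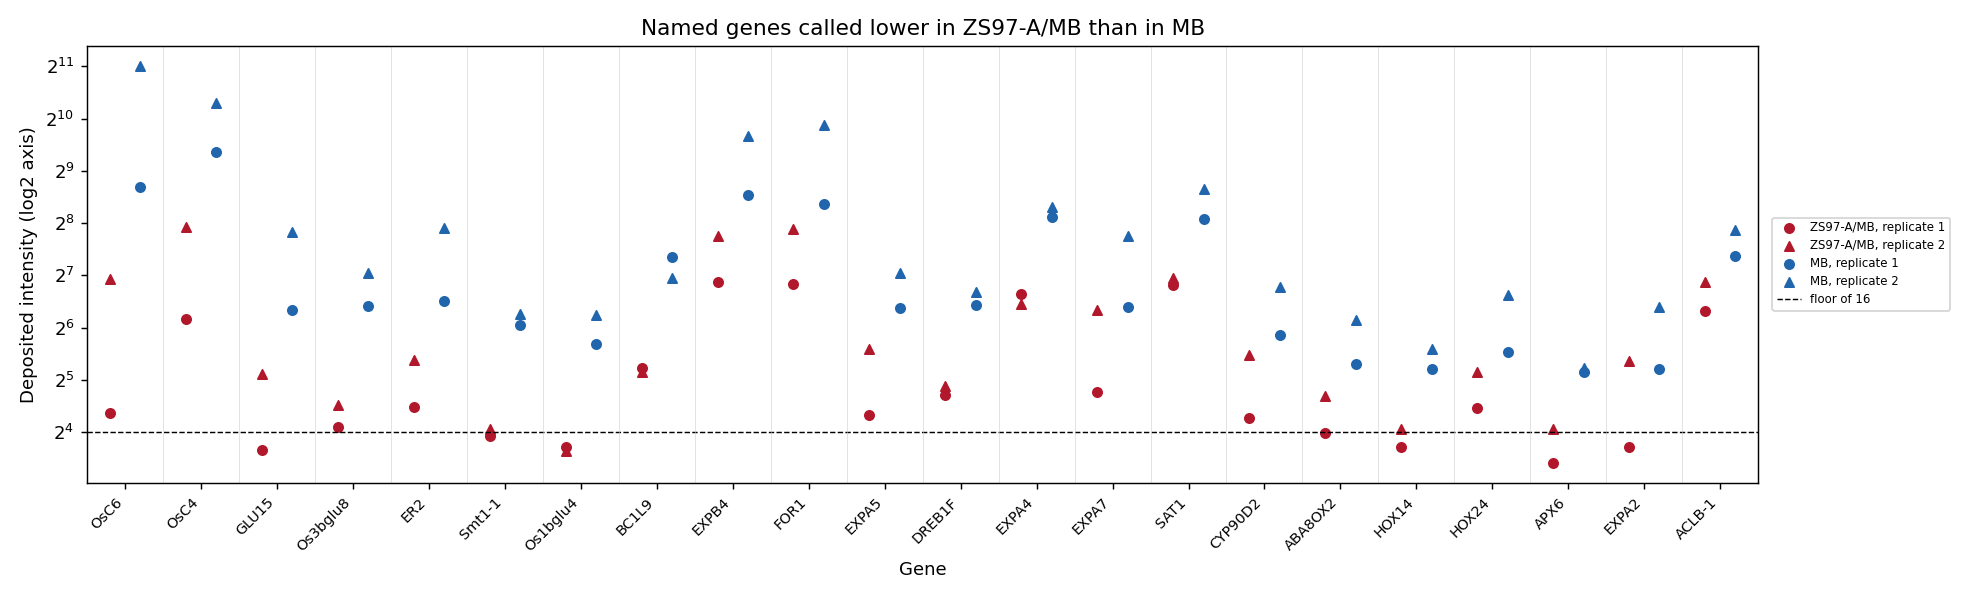
Deposited intensity (log2 axis) of the 22 named genes with a symbol that were called lower in ZS97-A/MB (red, left in each column) than in MB (blue, right). Circles are replicate 1, triangles replicate 2, and the dashed line is the floor of 16. OsC6 stands at 20.8 and 123 in ZS97-A/MB and at 415 and 2063 in MB.

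Of 6 tested genes of sterol and brassinosteroid synthesis 2 fell and 0 rose. Smt1-1 encodes a sterol methyltransferase of membrane sterol synthesis. It measured 15.2 and 16.7 in ZS97-A/MB, against 66.4 and 76.8 in MB, so that ZS97-A/MB was at the floor or just above it (-2.13 ± 0.15, SE, adjusted p = 0.00453). CYP90D2, a cytochrome P450 of brassinosteroid synthesis, gave 19.2 and 44.3 in ZS97-A/MB, against 58.4 and 109.6 in MB (-1.45 ± 0.15, SE, adjusted p = 0.00514). Among genes of other hormones the single call was ABA8OX2, for a hydroxylase that breaks down abscisic acid (-1.38, adjusted p = 0.00510), out of 54 tested genes of abscisic acid with a median of 0.01. Of the 33 tested auxin genes 0 were called. The repressors IAA30 (-1.82, adjusted p = 0.0161) and IAA17 (-1.73, adjusted p = 0.0125) were the lowest of them and SAUR39 was the highest (1.64, adjusted p = 0.0172). For gibberellin, ethylene, cytokinin and jasmonate, with 3, 6, 14 and 22 genes tested, 0 were called. With 1.04% called lower and 0.914% higher over all genes tested, 0 calls in hormone lists this small say little about them.

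Transcription factor and signalling genes that fell came from several families. DREB1F, of the family that binds the dehydration response element, gave 26.4 and 29.6 in ZS97-A/MB, against 86.1 and 103 in MB (-1.76 ± 0.14, SE, adjusted p = 0.00454). The homeodomain-leucine zipper genes HOX14 (-1.37, adjusted p = 0.00573) and HOX24 (-1.26, adjusted p = 0.00835) were the only calls among 29 tested homeobox genes. ER2, an ERECTA-like receptor kinase gene, gave 22.4 and 41.8 in ZS97-A/MB, against 91.3 and 241 in MB (-2.28 ± 0.28, SE, adjusted p = 0.00778). Neither the 15 tested MADS-box genes nor the 8 tested NAC and 6 tested WRKY genes held a call, beside 1.04% lower and 0.914% higher over all genes. NAC45 had the highest change of these (2.03, adjusted p = 0.0467), with 93.4 and 127 in ZS97-A/MB, against 44.5 and 11.4 in MB. WRKY62 lay at 156 and 221 in ZS97-A/MB, against 153 and 41.4 in MB, so that its difference was present in replicate number 2 alone (0.02 and 2.42).

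Metabolic genes that fell were APX6, ACLB-1 and SAT1. APX6 encodes an ascorbate peroxidase, which removes hydrogen peroxide, and gave 10.7 and 16.7 in ZS97-A/MB, against 35.4 and 37.5 in MB (-1.16, adjusted p = 0.00579), the single call among 20 tested antioxidant genes. ACLB-1 encodes a subunit of ATP citrate lyase, which makes acetyl-CoA for lipids outside the mitochondrion. It gave 80.0 and 118 in ZS97-A/MB, against 165 and 233 in MB (-1.01, adjusted p = 0.00859). ACLA-2, for the other subunit, was at -1.43 but missed the threshold (adjusted p = 0.0106). SAT1 measured 113 and 123 in ZS97-A/MB, against 271 and 403 in MB (-1.48, adjusted p = 0.00563). Of 21 tested genes of sugar transport and sucrose metabolism 0 were called, beside 1.04% lower and 0.914% higher over all genes. The sugar exporter genes SWEET11 (-1.99, adjusted p = 0.0110) and SWEET15 (-1.16, adjusted p = 0.0191) and the sucrose synthase gene SUS2 (-1.46, adjusted p = 0.0111) were the lowest of that list, and a second, dimmer probe of SUS2 was called (-2.15, adjusted p = 0.00562). The chalcone synthase gene CHS1, for the first step of flavonoid synthesis, gave 6.90 and 16.4 in ZS97-A/MB, against 24.9 and 118 in MB. With -0.64 in replicate number 1 and -2.85 in replicate number 2 it was not called (adjusted p = 0.0757). It passed the threshold without a floor, with 1 added (-2.24, adjusted p = 0.00498), and without MB replicate 1 (-2.85, adjusted p = 0.00190).

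In the opposite direction, 2 of 28 tested genes of metal homeostasis rose and 0 fell, with a list median of -0.02 and 15 negative members. Among all genes tested, 0.914% were called higher, 1.04% were called lower and 44.2% were negative. The transcription factor gene bHLH063 (LOC4332972, also named IRO3), which acts in the iron deficiency response, gave 463 and 838 in ZS97-A/MB, against 131 and 167 in MB. Both ZS97-A/MB arrays exceeded both MB arrays, and the change was 2.07 ± 0.16 (SE, adjusted p = 0.00453), or 4.21-fold. NRAMP1 (LOC4342862), for a metal ion transporter, gave 101 and 133 in ZS97-A/MB, against 31.2 and 60.5 in MB (1.42 ± 0.17, SE, adjusted p = 0.00677). Transporters of metals bound to phytosiderophores or nicotianamine, of the YSL family, stood high without passing the threshold. YSL2 measured 146 and 255 in ZS97-A/MB, against 72.8 and 77.2 in MB (1.36, adjusted p = 0.0106). YSL12 (2.24, adjusted p = 0.0128) and YSL13 (2.04, adjusted p = 0.0408), which are neighbours on chromosome 4, were also above MB in both replicate numbers. The lowest member was the metallothionein gene MT2B (-2.52, adjusted p = 0.0170). The gene that RefSeq names NRAMP6 (LOC4352640) was at 27.0 and 21.3 in ZS97-A/MB, against 26.4 and 24.7 in MB (-0.09, adjusted p = 0.682). The study's Nramp6, reported as highly expressed in ZS97-A/MB, has a locus identifier of chromosome 7, where NRAMP1 also lies. Whether the study's gene is the one named NRAMP6 or NRAMP1 here was not settled.

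AOX1a (LOC4336874, chromosome 4), which encodes the alternative oxidase of mitochondria, gave 738 and 1060 in ZS97-A/MB, against 309 and 352 in MB. Its change was 1.42 ± 0.17 (SE, adjusted p = 0.00778), or 2.68-fold higher, with 1.26 and 1.59 in the replicate numbers. HAK5, for a high-affinity potassium transporter, stood at 44.9 and 42.4 in ZS97-A/MB and under the floor in MB, at 11.2 and 11.9. The rise of 1.45 ± 0.13 (SE, adjusted p = 0.00488) is thus counted from the floor, and HAK5 was the single call among 30 tested genes of potassium transporters and aquaporins. HAK5 entered the fit only through its ZS97-A/MB values, as it lay near or under the floor on the other arrays. HSFA4D (LOC4339409, also named SPL7), a heat stress transcription factor gene in which a mutation is known to give spotted leaves, measured 161 and 218 in ZS97-A/MB, against 48.3 and 37.1 in MB (2.14 ± 0.27, SE, adjusted p = 0.00786). It was the only call among 34 tested genes of heat shock proteins and factors, which had a median of 0.25, with 22 positive members. Over all genes tested the median was 0.06, and 5549 of 9960 were positive. The shares called over all genes were 1.04% lower and 0.914% higher.

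The remaining named genes that rose have varied functions. RSS1, which is needed for cell division under salt stress, gave 134 and 171 in ZS97-A/MB, against 46.5 and 58.2 in MB (1.54 ± 0.14, SE, adjusted p = 0.00460). CTU2, for a protein of tRNA thiolation, gave 91.1 and 134 in ZS97-A/MB, against 34.6 and 50.1 in MB (1.41, adjusted p = 0.00778). The leucine zipper factor genes bZIP52 (1.70, adjusted p = 0.00888) and bZIP70 (1.22, adjusted p = 0.00578) and the D-cysteine desulfhydrase gene DCD1 (1.12, adjusted p = 0.00786) completed the set. Of 10 tested genes of photosynthesis (median -0.37), 17 of phenylpropanoids and flavonoids (-0.20) and 21 of nitrogen and phosphate (0.02), 0 were called. Of 31 tested genes of the cell cycle and DNA replication and 50 of calcium sensors and kinases, 0 were called. Over all genes tested, 1.04% were called lower and 0.914% higher, so 0 calls in lists of this size say little about them.

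**Figure D3:**
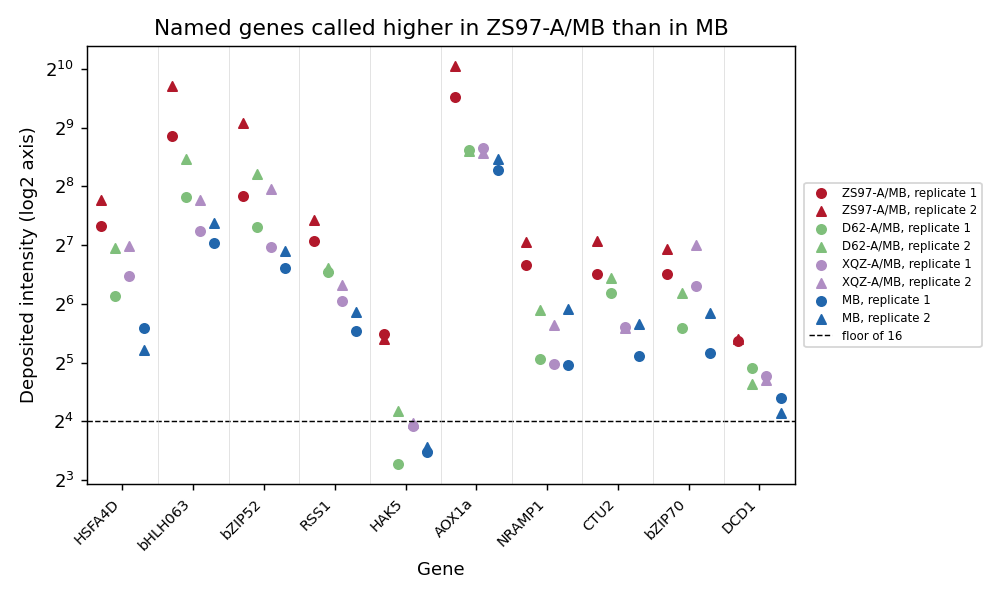
Deposited intensity (log2 axis) of the 10 named genes with a symbol that were called higher in ZS97-A/MB than in MB, for ZS97-A/MB (red), D62-A/MB (green), XQZ-A/MB (purple) and MB (blue), from left to right in each column. Circles are replicate 1, triangles replicate 2, and the dashed line is the floor of 16. For HAK5, ZS97-A/MB stands at 44.9 and 42.4 and MB at 11.2 and 11.9.

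Several genes without a symbol had changes as large as those of the named genes. LOC4328039 on chromosome 2 lay under the floor on both ZS97-A/MB arrays, at 6.81 and 10.9, and at 218 and 376 in MB, a change of -4.16 counted down to the floor (adjusted p = 0.00312). This gene entered the fit through its MB values alone. LOC4331756 gave 18.8 and 75.1 in ZS97-A/MB, against 203 and 707 in MB (-3.33), and LOC4344143 gave 30.2 and 58.7 in ZS97-A/MB, against 191 and 839 in MB (-3.25). LOC9267479 gave 19.3 and 46.1 in ZS97-A/MB, against 177 and 421 in MB (-3.19). Among those that rose, LOC4326659 gave 115 and 179 in ZS97-A/MB, against 33.9 and 12.0 in MB (2.62), LOC4331363 gave 448 and 496 in ZS97-A/MB, against 86.9 and 74.9 in MB (2.55), and LOC4328219 gave 255 and 474 in ZS97-A/MB, against 60.8 and 63.5 in MB (2.48). LOC9268428 (2.33) and LOC4330050 (2.23) followed. In each of these genes, both ZS97-A/MB arrays lay on the same side of both MB arrays.

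Lists with calls in the lower direction alone were the tapetum, expansins, beta-glucosidases, wall polymers, sterols, homeobox, DREB and ERF factors, abscisic acid and antioxidant enzymes. A single call lies in 1 direction by necessity, and against the shares of 1.04% lower and 0.914% higher over all genes, abscisic acid (1 of 54) and antioxidant enzymes (1 of 20) held 1 lower gene, and DREB and ERF factors 1 of 9. Those with calls in the higher direction alone were metal homeostasis, heat shock, and potassium transporters and aquaporins, while energy metabolism had 1 of each, ACLB-1 and AOX1a. Heat shock (1 of 34) and potassium transporters and aquaporins (1 of 30) likewise rest on 1 gene. The lowest medians were those of the tapetum list (-0.73) and of starch metabolism (-0.67, with 7 genes tested and 0 called), and the highest that of the NAC factors (0.34). In replicate number 1 the medians of the tapetum list and of the expansins were 0.00, since many of their members lay at or under the floor in both lines, and in replicate number 2 they were -1.47 and -0.52. After quantile normalization, 2 calls remained for each of the tapetum, expansins, beta-glucosidases, wall polymers and sterols and 1 for metal homeostasis, and 0 for the other lists.

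**Figure D4:**
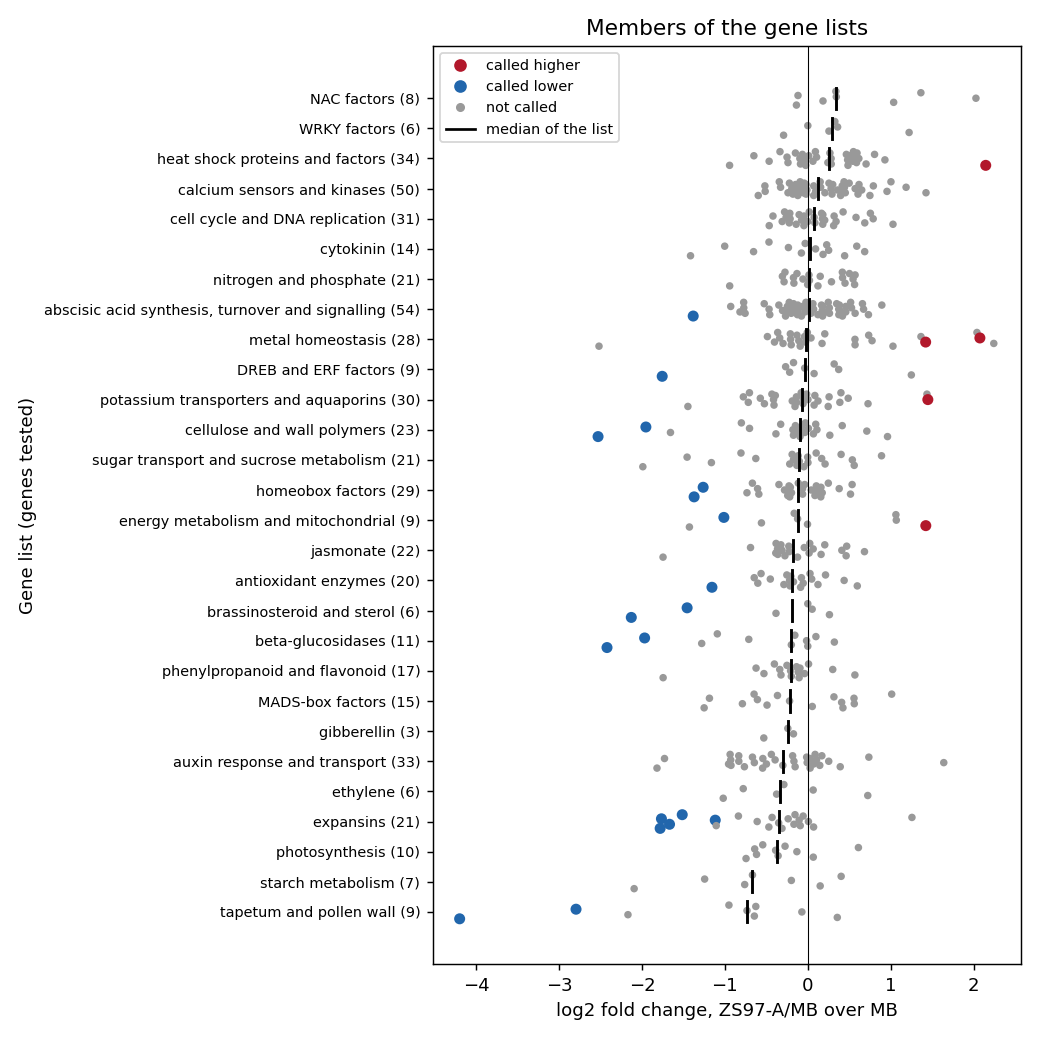
Log2 fold change (ZS97-A/MB over MB) of the tested members of 28 gene lists, ordered by the median of each list (black line). Blue points were called lower, red points higher and grey points were not called. The tapetum and pollen wall list has the lowest median, at -0.73, and NAC factors the highest, at 0.34.

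The lower genes and the higher genes differed in where the other CMS lines stood. All comparisons with MB use the same 2 MB arrays, and the members were chosen by the ZS97-A/MB arrays, so these values are a description. For the 159 lower probes the median change was -1.56 in ZS97-A/MB, -1.25 in D62-A/MB and -1.67 in XQZ-A/MB, each against MB. For the 174 higher probes it was 1.46 in ZS97-A/MB, 0.78 in D62-A/MB and 0.55 in XQZ-A/MB. OsC6 was about equally low in the 3 lines (-4.20 in ZS97-A/MB, -4.15 in D62-A/MB and -4.27 in XQZ-A/MB), with 32.1 and 84.9 in D62-A/MB and 33.2 and 69.5 in XQZ-A/MB. AOX1a, by contrast, gave 394 and 389.7 in D62-A/MB and 400.3 and 378 in XQZ-A/MB, values closer to MB than to ZS97-A/MB.

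The contrast of ZS97-A/MB with the mean of D62-A/MB and XQZ-A/MB takes such differences without the MB values. The MB arrays still enter the fit, and so the spread behind its p-values. At an adjusted p under 0.01 and 2-fold, limma called 0 probes, beside 4407 at an unadjusted p under 0.05 and 859 by the t test of the methods at that level. At an adjusted p under 0.05 and 2-fold, 14 probes were lower (0.0686%) and 196 higher (0.960%) in ZS97-A/MB, and 54 of the 174 probes higher than MB and 2 of the 159 lower than MB were among them. By gene these were 7 lower (0.0703%) and 109 higher (1.09%). Of the named genes that rose against MB, NRAMP1 (1.47, adjusted p = 0.0147), bHLH063 (1.46, adjusted p = 0.0147), HAK5 (1.41, adjusted p = 0.0143) and AOX1a (1.18, adjusted p = 0.0223) passed these limits. HSFA4D did not (0.92, adjusted p = 0.0814). Of the named genes that fell, EXPB4 did (-1.27, adjusted p = 0.0197), and OsC6 (0.01, adjusted p = 0.988) and OsC4 (0.42, adjusted p = 0.263) did not. Some genes differed from the other CMS lines but were not called against MB, and those given here were chosen after their values were seen. JAR1, for the enzyme that joins jasmonate to amino acids, measured 152 and 276 in ZS97-A/MB, against 46.8 and 94.9 in D62-A/MB and 51.3 and 63.7 in XQZ-A/MB (1.73, adjusted p = 0.0192), while MB was at 99.2 and 239. The cytokinin response regulator gene RR9 measured 105 and 175 in ZS97-A/MB, against 42.0 and 64.3 in D62-A/MB and 54.7 and 48.5 in XQZ-A/MB (1.39, adjusted p = 0.0262), with 92.7 and 145 in MB. WRKY76, for a WRKY factor, was lower, at 15.6 and 41.9 in ZS97-A/MB, against 69.1 and 101.8 in D62-A/MB and 38.4 and 58.1 in XQZ-A/MB (-1.28, adjusted p = 0.0384). MB was at 24.4 and 27.4, so that ZS97-A/MB differed from MB by -0.61 and 0.61 in the replicate numbers. For OsC6 the standard error of this contrast was 0.31. Passing the limits takes several standard errors, so a difference between the CMS lines of several times that size could have been missed.

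Called genes were spread over the 12 chromosomes. The share of tested genes that were called lower ran from 0.538% on chromosome 11 to 1.72% on chromosome 10, and the share called higher from 0.609% on chromosome 1 to 1.61% on chromosome 11. Among windows of 20 neighbouring tested genes, the fullest held 4 called genes, on chromosome 2, and 66.6% of 9731 windows held 0.

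Markers of floral organs were checked against the labelled tissue. All 4 lemma and palea markers (MADS14, MADS15, MADS1 and MADS6), 3 of 5 for lodicule and stamen and 4 of 5 for the tapetum were tied to a probe. The summed intensity of the lemma and palea markers was 630 and 1040 in ZS97-A/MB, against 637 and 732 in MB, and that of the lodicule and stamen markers 558 and 1023 in ZS97-A/MB, against 869 and 1471 in MB. None of these MADS-box genes was called, and the stamen gene MADS16 had the lowest change, with 250.5 and 411 in ZS97-A/MB, against 381 and 807 in MB (-0.79, adjusted p = 0.0276). The 4 tapetum markers summed to 285 and 661 in ZS97-A/MB, against 1259 and 3568 in MB, mostly through OsC6 and OsC4, which were also among the calls. Carpel and ovule markers gave 36.7 and 78.0 in ZS97-A/MB, against 52.4 and 112 in MB, with MADS21 and MADS29 under the floor on all 4 arrays. Green tissue markers gave 85.6 and 268 in ZS97-A/MB, against 108 and 354 in MB. What part tissue composition had in the changes above was not tested.

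The background of the arrays also differed between the lines. The 23 background control probe sets hold 3 to 25 G or C bases. Those with 15 or more were lower in ZS97-A/MB than in MB, by a median of -0.18 log2 units in replicate number 1 and -0.51 in replicate number 2, while those with fewer differed by -0.01 in both. At 20 G or C bases the controls gave 23.4 and 100.2 in ZS97-A/MB, against 26.7 and 145.8 in MB, so that they exceeded the floor. The part of this background in the lower values of dim probes was not tested. When only the 1954 probes with a mean at or above the highest control (214.1) were fitted, 11 were called lower and 9 higher. OsC6, OsC4, EXPB4, bHLH063, LOC4331363 and LOC4328219 were called in that fit, while FOR1, bZIP52 and AOX1a, with adjusted p of 0.0112, 0.0141 and 0.0113, were not. The mean was taken over all 8 arrays, so a gene could enter through the line where it was high. OsC6, at 20.8 and 123, lay below the highest control on both ZS97-A/MB arrays, so its values there are not clear of the background.

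**Figure D5:**
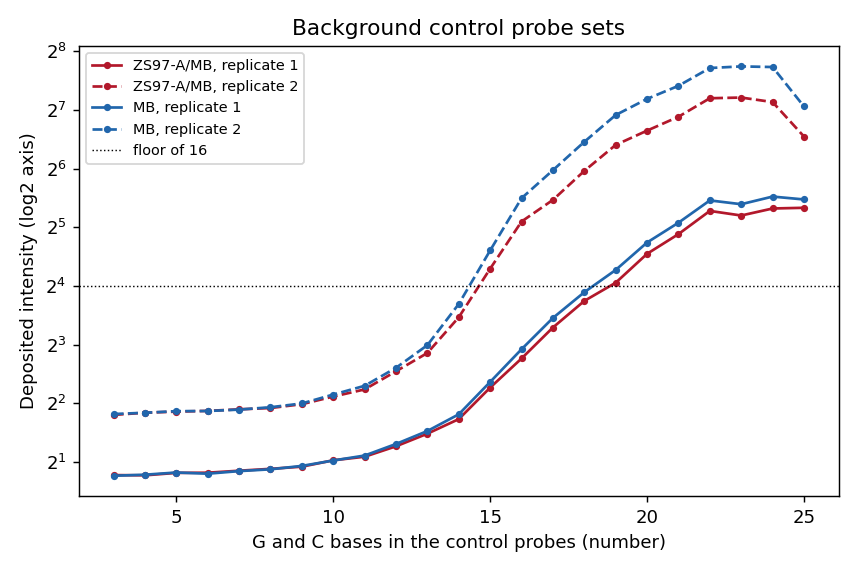
Deposited intensity (log2 axis) of 23 background control probe sets by their number of G and C bases (3 to 25), in ZS97-A/MB (red) and MB (blue), for replicate 1 (solid) and replicate 2 (dashed), with the floor of 16 dotted. The lines of ZS97-A/MB run below those of MB from 15 G and C bases on, with 100.2 against 145.8 at 20 bases in replicate 2.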

How the data were processed

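RNA of ZS97-A/MB, D62-A/MB, XQZ-A/MB and MB was measured on 8 single-colour Rice (Cn) Gene 1.1 ST arrays, 2 biological replicates per line. How the authors computed the deposited intensity values is not settled: MAS5 (no version) stands in the labels, while RMA followed by a log transformation is described in the methods, and the values are linear. A further deposited table was equal (largest difference 0) apart from 98 control probe sets. Arrays are precise only as far as 2 per line allow.

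Intensities were floored at 16 and log2-transformed, and limma 3.58.1 (R 4.3.3) was fitted to 20416 probes of 8 arrays with coefficients for line and replicate number, empirical Bayes moderation and Benjamini-Hochberg adjustment (3 residual and 3.96 prior degrees of freedom). Arrays of the same replicate number deviated together: deviations of replicate 2 from replicate 1 had correlations between 0.728 and 0.840 over all 6 pairs of lines. The replicate 2 arrays of every line had the higher median, and a shared difference in scale could give such correlations. Whether the samples themselves were paired was not tested. Tested on simulated data, the fit missed nearly all changes of 2-fold and many of 4-fold, so a gene that was not called may still have changed. The simulated 2-fold changes lay on the cutoff itself, where many must fail. Changes were placed in brighter probes alone, so dim probes were not covered. Python 3.11.15, numpy 2.4.6, pandas 2.3.3 and matplotlib 3.10.9 made tables and figures.

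Probes were tied to genes by the platform annotation, updated through RefSeq (ASM3414082v1, used for names, chromosomes and gene order only). Of 40832 probes, 15295 had 1 gene, 436 several and 25101 none, and the brightest of several probes represents a gene. Genes named are the first 15 with a symbol per direction by fold change, the first 5 of any kind and called list members. Genes the study names were added where a symbol matched, which for NRAMP6 may be a different gene. Other list members were chosen after their values were seen, and so were the exclusions of unrelated synonyms from lists. Members, lists and tests were chosen with earlier results of these data known. Identifiers Os05g0119900, Os07g0187000 and Os07g0621600, WRKY72, and promoter sequences were not analysed here. Alternatives covered scaling, floor, filter, block, trend, thresholds, the methods' t test and leaving out each array.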

Additional observations from a re-analysis of the deposited data

Results flagged for a closer look

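With 2 arrays per line, no array could be examined as an outlier. Results differed between ZS97-A/MB and the other CMS lines by the contrast of ZS97-A/MB with the mean of D62-A/MB and XQZ-A/MB, at an adjusted p under 0.05 (limma with the replicate number as a term). Of the named genes, higher values in ZS97-A/MB were found for LOC4330050 (1.88), NRAMP1 (1.47), bHLH063 (1.46), HAK5 (1.41), AOX1a (1.18), RSS1 (0.86), LOC4331363 (0.84), CTU2 (0.83) and DCD1 (0.62). Lower values were found for EXPB4 (-1.27), Smt1-1 (-0.96), CYP90D2 (-0.93) and EXPA7 (-0.72). LOC4330050 measured 106 and 157 in ZS97-A/MB, against 29.8 and 43.4 in D62-A/MB and 39.0 and 29.8 in XQZ-A/MB. None of these contrasts passed an adjusted p of 0.01, and all 13 were named because they differed between ZS97-A/MB and MB.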

How the results depend on the processing

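For ZS97-A/MB against MB, 159 probes were called lower and 174 higher. No probe was called in either direction among probes above the floor on at least 1 array, with a floor of 32, or by the methods' t test, at unadjusted p under 0.05 for 2130, 1241 and 297 lower probes and 3943, 2683 and 613 higher probes. All probes without a filter gave 1 lower and 0 higher, quantile normalization 51 and 20, and probes above the highest background control 11 and 9. Without a floor, with 1 added, 249 were lower and 248 higher, and only the lines compared gave 125 and 85. At adjusted p under 0.05 and 2-fold the counts were 382 and 487. Leaving out 1 array at a time gave 0 to 178 lower and 0 to 172 higher. The mean-variance trend (163 and 165) moved them little. Of the 41 named genes that were called, all kept their sign in 706 of 706 values, and 16 kept their call after quantile normalization. The sign was largely fixed in advance: many alternatives leave the fold change itself as it was. The genes also had a like sign in both replicate numbers when they were called. A floor of 32 moved 9 of the 41 by over 1.5 times and the other alternatives 0, and it left 8 under 2-fold. The sign of the median also turned with quantile normalization for metal homeostasis (0.01), cell cycle (-0.01), abscisic acid (-0.07) and cytokinin (-0.09). NRAMP6, not called, ran from -0.1870 without MB replicate 1 to 0.0034 without MB replicate 2, a turned sign. CHS1, not called, passed without a floor, with 1 added (-2.24), and without MB replicate 1 (-2.85). The cause of the lost calls was not tested.

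The replicate block was part of the fit, since arrays of the same number deviated together. With no replicate block limma called 0 probes lower and 0 higher (370 and 798 at unadjusted p under 0.05).

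For ZS97-A/MB against the other CMS lines, with 0 calls in each direction, no floor with 1 added gave 1 lower and 7 higher, the trend 1 and 6, and adjusted p under 0.05 with 2-fold 14 and 196. Leaving out 1 array gave 0 to 17 lower and 0 to 30 higher, the highest without D62-A/MB replicate 1.

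Of the probes 2-fold apart in both replicate numbers (272 lower, 244 higher), a floor of 32 left 163 and 159. The difference of the means with no replicate block gave 466 and 565. A single replicate number gave 563 to 648 lower and 377 to 1376 higher, an alternative chosen after seeing the data, as was the fit above the highest control. With 2 arrays per line and most replicate 1 values at or under the floor, the size of a change in a dim probe depends on the floor.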
